A study of Mus musculus with 6 samples.

Results

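The 7 genes described here (Hmox1, Slc40a1, Slc11a1, Fth1, Ftl1, Tfrc and Hp) handle iron and haem. They were taken by their symbols from the 32285 genes of the count tables, each symbol matching 1 gene. The genes were chosen with earlier results of these data known. Their unique molecular identifiers (UMIs, 1 per captured RNA molecule) were summed over 34977 colon cells in 6 single-cell libraries. Cells were sorted into a myeloid, a T and an epithelial gate by marker genes, and levels are given in CPM, the usual scaling of a gene's UMIs by the sum of all UMIs of the gate. The intervals given with levels, ratios and shares are 95% intervals that cover counting error only.

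Macrophages take up dying red cells and haem-containing debris, and release the iron again or store it. Haem oxygenase (Hmox1) opens the haem ring and frees its iron, ferritin (heavy chain Fth1, light chain Ftl1) stores iron, and ferroportin (Slc40a1) exports it from the cell. The transferrin receptor (Tfrc) takes up iron from plasma transferrin and is known for its high level in dividing cells. Slc11a1, also called NRAMP1, moves divalent metals out of the phagosome, and haptoglobin (Hp) binds free haemoglobin and hands it to the receptor CD163.

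The mice had been transplanted with bone marrow only (BM) or with bone marrow and added spleen cells, which leads to graft-versus-host disease (GVHD), an attack of donor T cells on the recipient. Donor CD11b+ CD64+ macrophages were sorted from the colon of BM mice, GVHD mice, wild-type (WT) recipients and recipients lacking interleukin 34 (IL-34-/-, here IL34KO), and donor T cells were sorted from WT and IL34KO recipients. IL-34 is a ligand of CSF1R, a receptor on which macrophages depend, and the series asks how it acts on macrophages and on T cells in GVHD. The sources used here do not give the strain, age and number of the mice, the IL-34 allele, or whether the WT and IL34KO recipients received spleen cells. Each group was 1 library, so no difference has a replicate check, no test was made, and a difference between libraries cannot be told apart from a difference between preparations.

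The libraries held 4169 to 18360 barcodes and 43660889 to 114425913 UMIs. BM and GVHD shared 2502 barcodes, which is 42.6% of the BM and 60.01% of the GVHD barcodes, while every other pair of libraries shared 5 to 75. BM barcodes also found in GVHD were dropped (2048 of those that passed the filters), which left 2086 myeloid cells in BM against 2334 in GVHD. The WT and IL34KO macrophage libraries held 4356 and 4676 myeloid cells. The libraries labelled T cells held more myeloid cells (8100 in WT and 4474 in IL34KO) than T cells (3036 and 1737), so they give a further IL34KO and WT pair of myeloid cells. Epithelial cells numbered 10 in BM, 42 in GVHD and 421 to 1091 in the other libraries, and the first pair was left out of epithelial ranges. Il34 RNA over all barcodes was 2.30 CPM (2.02 to 2.61) in the library labelled IL34KO macrophages and 1.76 CPM (1.51 to 2.03) in WT macrophages. In the T-cell libraries it was 1.55 CPM (1.30 to 1.84) in IL34KO and 1.18 CPM (0.989 to 1.40) in WT. Il34 reads were thus not lower in the libraries labelled IL34KO. Which part of the gene the allele removes the sources used here do not say, so these reads do not check the label, and IL34KO stands below for the library labelled IL34KO.

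Short hairpins named iron-responsive elements sit in the untranslated regions of several of these mRNAs and bind iron regulatory proteins when the cell is short of iron. In a 5′ untranslated region the bound protein blocks translation, and in the 3′ region of Tfrc it protects the mRNA from decay. The following elements were found in the GENCODE M21 transcripts (GRCm38, the build of the counts) of the 4 members searched, Slc11a1, Ftl1, Tfrc and Fth1. They are shown because the storage genes Fth1 and Ftl1 and the uptake gene Tfrc carry the same kind of element. Hmox1, Slc40a1 and Hp were not searched, so the list does not show whether they carry one. An RNA count does not measure translation. Capitals mark the loop CAGTGN, and the 5 bases on each side of the loop pair with each other (G with T allowed).
Fth1: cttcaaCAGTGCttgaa
Ftl1: cttcaaCAGTGTttgaa
Tfrc 1: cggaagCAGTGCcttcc
Tfrc 2: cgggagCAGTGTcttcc
Tfrc 3: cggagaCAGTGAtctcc
Tfrc 4: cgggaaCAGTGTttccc
The Fth1 and Ftl1 elements lay at bases 16 to 32 and 39 to 55 of the 5′ untranslated region and differ only in the last base of the loop. The 4 Tfrc elements lay between bases 892 and 1399 of the 3′ untranslated region, and Slc11a1 had none in either region. Each position is the smallest over the annotated transcripts of the gene, and other transcripts can place the element elsewhere. The same search found an element in the 5′ region of 31 of 20971 genes (0.148%) and in the 3′ region of 144 of 21769 genes (0.661%).

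By GENCODE M21 on GRCm38 the genes lie apart on 5 chromosomes. Hmox1 is at chr8:75093621-75100589 on the plus strand and Hp at chr8:109575128-109579172 on the minus strand. Slc40a1 is at chr1:45908068-45926523 (minus) and Slc11a1 at chr1:74375195-74386062 (plus). Fth1 is at chr19:9980598-9985098 (plus), Ftl1 at chr7:45457944-45459884 (minus) and Tfrc at chr16:32608920-32632794 (plus). RefSeq promoter windows (GRCm38.p6, 250 bases before to 50 after the start) were at hand for 4 members in 6 windows. On either strand, TGACNNNGC (the core of antioxidant response sites) and TTCNNNGAA (a STAT site) occurred in none of the 6, against 12.4% and 8.30% of 32851 windows. ACGTG (the core of hypoxia response sites) occurred in both windows of Tfrc, which overlap, and in 19.6% of all windows. These letters describe the windows only.

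Of the 7 genes, 4 had their highest levels in the myeloid gate in every library (Hmox1, Slc11a1, Fth1 and Ftl1), with no overlap between the myeloid range and those of the other gates. Tfrc was highest in the epithelial gate with no overlap. Among 13284 genes measured in any gate, 10.6% were highest without overlap in the myeloid gate and 24.1% in the epithelial gate. Slc40a1 overlapped between gates through the BM myeloid cells. Hp overlapped only through the T gate of WT macrophages (19.7 CPM, from 1 cell), which lay above the 8.16 CPM of BM myeloid cells.

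**Figure D1:**
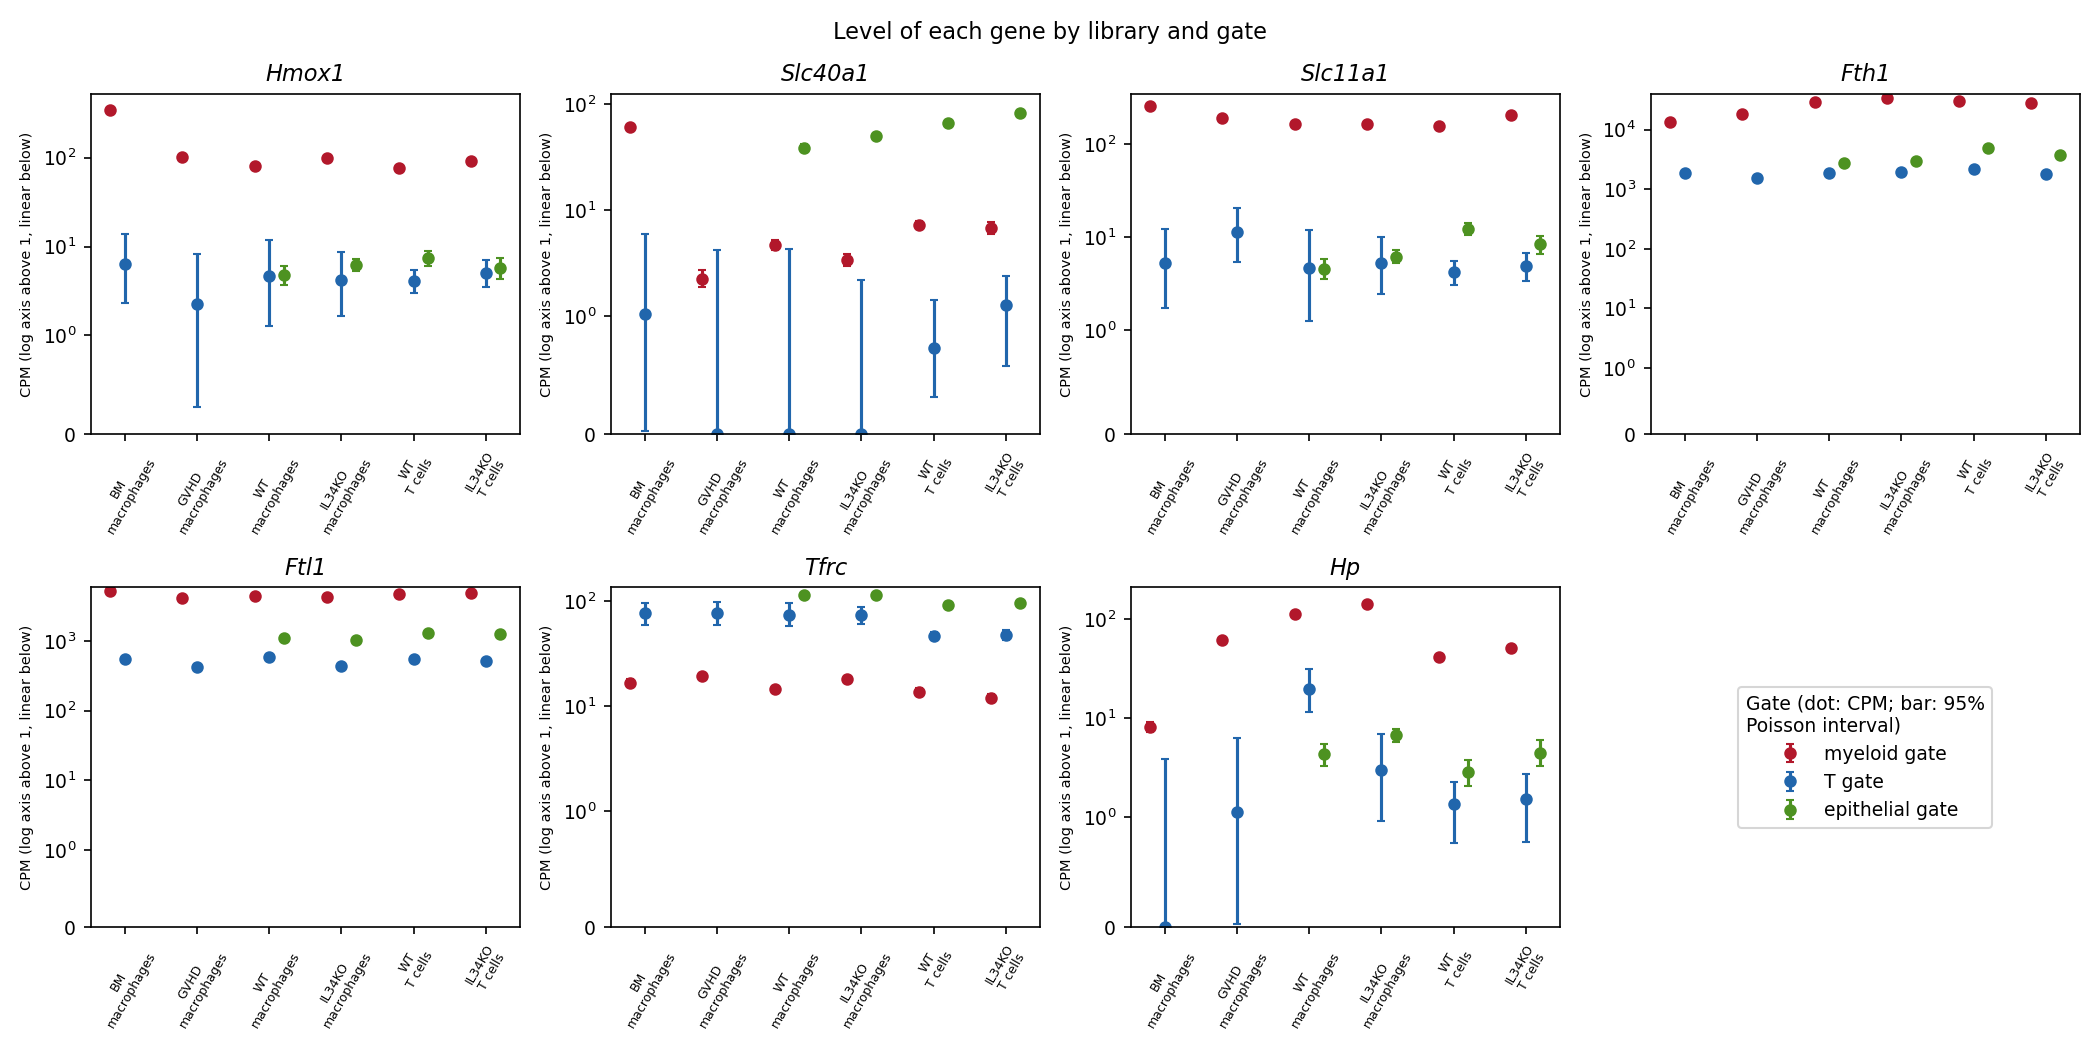
Level of each gene in CPM (log axis above 1, linear below) by library, with a dot for each gate and a bar for its 95% Poisson interval; the epithelial gates of BM and GVHD, under 50 cells, are not drawn. Hmox1 and Slc40a1 are highest among myeloid gates in BM (346 and 61.0 CPM), Hp is lowest there (8.16 CPM), and Tfrc is lowest in the myeloid gate in every library.

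Hmox1, the enzyme of haem breakdown, was higher in BM than in every other library. It stood in the myeloid gate at 346 CPM in the BM library, 101 in GVHD, 80.3 in WT macrophages, 98.7 in IL34KO macrophages, 76.7 in WT T cells and 90.4 in IL34KO T cells. BM was the highest by a wide margin, and the remaining 5 libraries lay within 76.7 to 101 CPM, in the order GVHD, IL34KO macrophages, IL34KO T cells, WT macrophages, WT T cells. The intervals of GVHD (98.4 to 104) and IL34KO macrophages (96.3 to 101) overlapped, as did those of the WT libraries (78.2 to 82.4 and 74.5 to 79.0). After each cell was thinned to 2000 UMIs, 30.5% of BM myeloid cells (28.5 to 32.6) had a Hmox1 UMI, against 11.1% to 13.9% in the other libraries. Without thinning the shares were 65.5% in BM and 59.4% in GVHD, at median depths of 12929 and 17389 UMIs, and 30.05% to 43.3% elsewhere. Thinning left out 76 cells in BM, 47 in GVHD and 150 to 297 elsewhere. T cells had a Hmox1 UMI in 0.746% to 1.46% of thinned cells at median depths of 2882 to 5576 UMIs, so the myeloid shares were far above those of the T gate.

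Iron export showed the widest spread of all members. Slc40a1 stood in the myeloid gate at 61.0 CPM in the BM library, 2.26 in GVHD, 4.73 in WT macrophages, 3.41 in IL34KO macrophages, 7.24 in WT T cells and 6.76 in IL34KO T cells. Every library other than BM lay below 8 CPM, and BM did not overlap them. Of thinned myeloid cells, 8.36% (7.18 to 9.66) had a Slc40a1 UMI in BM and 0.306% (0.123 to 0.630) in GVHD, with unthinned shares of 27.6% and 3.30%. T cells of GVHD had no Slc40a1 UMI, and a floor of 3 counts there is 3.39 CPM (95% upper limit 4.16 CPM), above the 2.26 CPM of the whole GVHD myeloid gate. The mature-list cells of that gate, described below, held 6.03 CPM (4.43 to 8.02), above both limits.

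Haptoglobin ran the other way. Hp stood in the myeloid gate at 8.16 CPM in the BM library, 61.6 in GVHD, 112 in WT macrophages, 141 in IL34KO macrophages, 41.4 in WT T cells and 51.5 in IL34KO T cells. BM was the lowest, and the macrophage libraries of WT and IL34KO recipients the highest. A Hp UMI was found in 1.09% of thinned BM myeloid cells, 9.66% in GVHD, 17.7% and 22.8% in WT and IL34KO macrophages, and 6.67% and 7.76% in the WT and IL34KO T-cell libraries. The unthinned shares ran from 3.36% in BM to 54.8% in IL34KO macrophages. In the T gate at most 0.885% of thinned cells had one, and the 17 Hp UMIs in T cells of the WT macrophage library all came from 1 cell of 124.

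Ferritin RNA was abundant in every myeloid gate. Fth1 stood at 13596 CPM in the BM library, 18515 in GVHD, 29398 in WT macrophages, 33886 in IL34KO macrophages, 30465 in WT T cells and 28562 in IL34KO T cells. BM was lowest and GVHD next, and both were below all WT and IL34KO libraries. Ftl1 stood at 5131, 4067, 4364, 4219, 4759 and 4815 CPM in the same order, a narrow range in which BM was highest and GVHD lowest. The number of Fth1 UMIs per Ftl1 UMI was therefore 2.65 in BM (2.63 to 2.67), 4.55 in GVHD, 6.74 and 8.03 in WT and IL34KO macrophages, and 6.40 and 5.93 in the WT and IL34KO T-cell libraries. In T cells the same ratio stayed within 3.23 to 4.44 in all 6 libraries, with BM at 3.37 and GVHD at 3.66. Ferritin light chain has near-identical copies in the genome, and reads can be shared between them. The 1 copy counted by name here, Ftl1-ps1, stood at 35.5 to 115 CPM in the myeloid gate. That count does not show how many reads were shared, so the resulting uncertainty of Ftl1 levels and of the ratio was not measured.

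**Figure D2:**
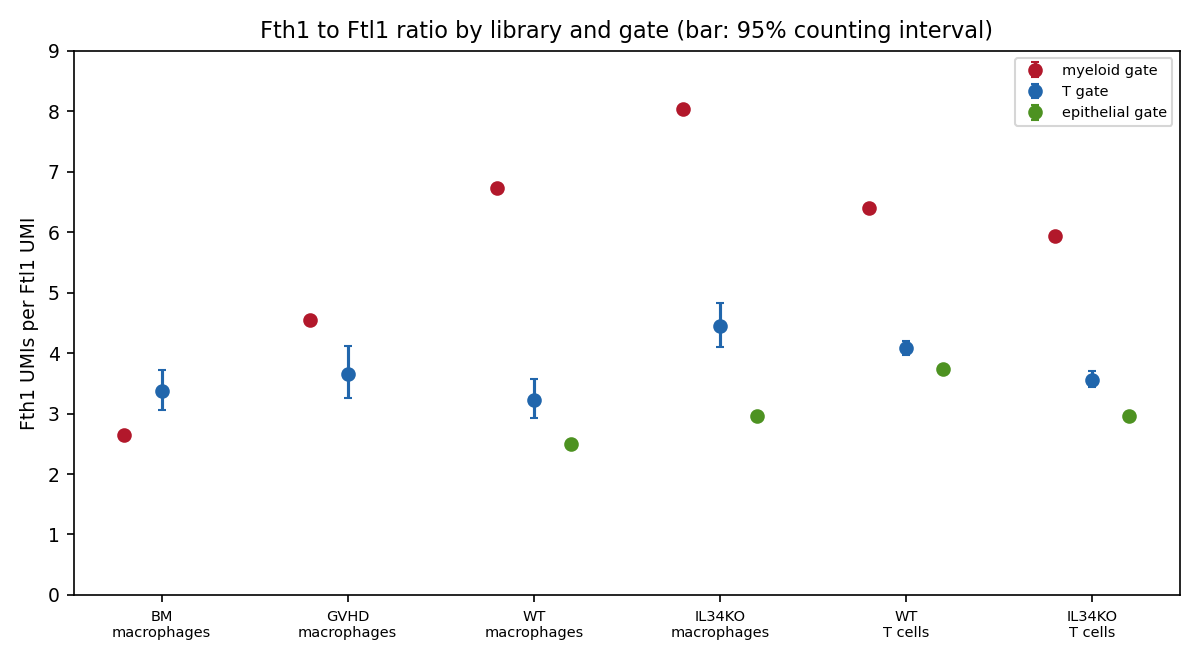
Fth1 UMIs per Ftl1 UMI (linear axis from 0) by library and gate, with 95% counting intervals; the epithelial gates of BM and GVHD are not drawn. The myeloid ratio runs from 2.65 in BM to 8.03 in IL34KO macrophages, while the T-gate ratio stays between 3.23 and 4.44.

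Of the uptake genes, Slc11a1 stood in the myeloid gate at 256 CPM in the BM library, 189 in GVHD, 165 in both macrophage libraries of WT and IL34KO recipients, 156 in WT T cells and 205 in IL34KO T cells. The pair at 165 CPM did not differ beyond their intervals, and BM was again highest. Tfrc stood at 16.5, 19.3, 14.6, 18.2, 13.7 and 11.9 CPM in the same order of libraries, a range within which the intervals of several libraries overlapped.

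Outside the myeloid gate, free RNA sets a floor that was measured with 5 macrophage genes (Lyz2, C1qa, C1qb, C1qc and Apoe). These stood in the T gate at 0.893% to 3.55% of their myeloid level in the same library, and in the epithelial gate at 2.23% to 7.39%. Slc11a1 (2.07% to 5.97% in T cells, 2.78% to 7.87% in the epithelium) lay near those shares, except in the T gate of GVHD. Slc11a1 was 5.97% there, with a lower limit of 2.86%, where the 5 genes reached 1.64%. Hmox1 (1.84% to 5.79% and 5.96% to 9.55%) lay above the 5 genes of the same library in part of the groups. In the epithelium it was 5.96% (4.64 to 7.54) in WT macrophages, where the 5 genes reached 3.50%. In that of WT T cells it was 9.55% (7.84 to 11.5), where they reached 7.39%. In the T gate of IL34KO T cells it was 5.60% (3.91 to 7.76), where they reached 2.55%. Its T-gate intervals in the macrophage sort included shares of those genes, as did its epithelial interval in IL34KO T cells. Fth1 (5.67% to 13.5% in T cells, 8.83% to 15.9% in the epithelium) and Ftl1 (10.3% to 13.4% and 24.0% to 27.3%) lay above the shares of the 5 genes. Ferritin RNA was therefore measured in all 3 gates. Slc11a1 outside the myeloid gate is read as background except in the T gate of GVHD. The low Hmox1 RNA outside the myeloid gate is not called background.

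Against the myeloid gate of the same library, Tfrc was higher in the T and epithelial gates and Slc40a1 in the epithelial gate only. Slc40a1 stood at 0 to 1.27 CPM in the T gate. In the T gate Tfrc stood at 76.3 CPM in the BM library, 76.7 in GVHD, 74.3 in WT macrophages, 73.1 in IL34KO macrophages, 46.2 in WT T cells and 47.5 in IL34KO T cells. T cells that came along in the macrophage sort thus lay above those of the T-cell sort, with intervals that did not overlap (57.2 to 97.3 against 42.3 to 52.9 CPM over all). The share of cycling T cells after thinning was 8.76% in BM, 17.2% in GVHD, 15.0% and 23.6% in WT and IL34KO macrophages, and 21.9% and 19.7% in the T-cell sort, so Tfrc did not follow it across libraries. In the epithelial gate Tfrc stood at 114 and 113 CPM in WT and IL34KO macrophages and at 92.3 and 95.6 in WT and IL34KO T cells. The epithelial levels were 621% to 800% and the T-cell levels 337% to 508% of the myeloid level of the same library. Slc40a1 in the epithelium stood at 38.5 CPM in WT macrophages, 50.2 in IL34KO macrophages, 65.6 in WT T cells and 81.5 in IL34KO T cells. These levels were 813% to 1473% of those of the myeloid cells of the same library, and bracket the level of BM myeloid cells.

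Cycling cells (at least 2 UMIs of 8 cell-cycle genes) were compared with the other cells of the same gate and library. In T cells Tfrc was 60.5 CPM in cycling and 36.7 CPM in other cells of the WT T-cell library, 58.6 and 40.3 in IL34KO T cells, and 88.9 and 55.4 in IL34KO macrophages. The ratios of 1.65, 1.46 and 1.60 all had intervals above 1. Epithelial cells gave ratios of 1.14 to 1.61 in 4 of 4 libraries, each with an interval above 1. In the myeloid gate the ratio lay between 0.858 and 1.08 and was above 1 in 2 of 6 libraries. Tfrc was thus higher in cycling T and epithelial cells and not in cycling myeloid cells. Cycling cells were deeper (in WT T cells, median 5375 against 2487 UMIs), and the part of depth in these ratios was not tested.

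Epithelial Slc40a1 was lower in cycling cells in 4 of 4 libraries, with 32.4 CPM in cycling and 60.03 CPM in other cells of WT macrophages, 37.9 and 95.6 in IL34KO macrophages, 34.5 and 103 in WT T cells, and 36.6 and 127 in IL34KO T cells. The ratios were 0.539, 0.397, 0.335 and 0.288, with every interval below 0.65. Epithelial Fth1 had ratios of 0.543 to 0.775 and Ftl1 of 0.889 to 0.936, both lower in 4 of 4 libraries. A split by Krt20, a keratin of mature surface colonocytes, was added after these values were seen and made on thinned cells. Cells with a Krt20 UMI had Slc40a1 at 142 to 172 CPM and cells without at 20.4 to 37.8 CPM, ratios of 4.54, 6.99, 5.75 and 4.54 in the same order of libraries. Fth1 was 1.32 to 1.81 times higher in the Krt20 cells and Ftl1 1.003 to 1.15 times. The Ftl1 interval lay above 1 only in WT T cells (1.06 to 1.24) and included 1 in the other libraries. Hephaestin (Heph), the ferroxidase that works with ferroportin in gut epithelium, was 1.92 to 3.55 times higher in the Krt20 cells. Tfrc was 0.395 and 0.404 of the level without Krt20 in the WT and IL34KO T-cell libraries, and 0.777 and 0.801 in the WT and IL34KO macrophage libraries, where the intervals included 1.

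**Figure D3:**
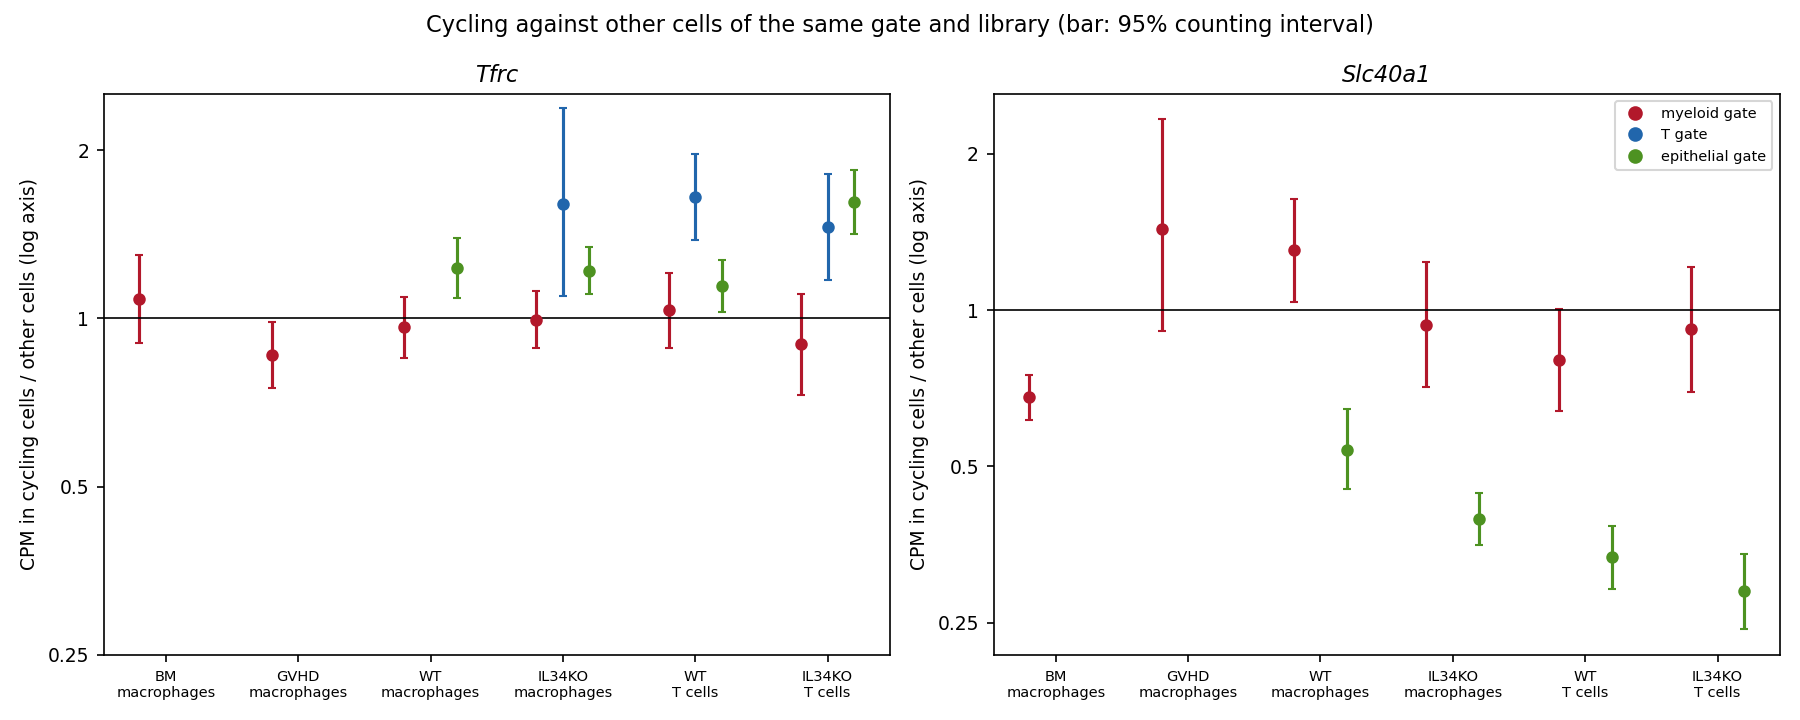
Ratio of the CPM in cycling cells to that in other cells of the same gate and library (log axis) for Tfrc and Slc40a1, with 95% counting intervals; a gate is drawn where both classes held at least 50 cells and the gene at least 20 UMIs. Tfrc lies above 1 in T cells (1.46 to 1.65) and epithelial cells (1.14 to 1.61), and Slc40a1 lies below 1 in epithelial cells (0.288 to 0.539).

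GVHD was compared with BM in the myeloid gate to see how these genes differ between transplants with and without spleen cells. At a fold of 1.5, Hp was higher and Hmox1 and Slc40a1 were lower in GVHD, so 3 of 7 members passed, against 33.8% of all 9841 genes measured (15.2% higher and 18.6% lower). That share is close to the background, and the members' median log2 ratio was -0.34 against -0.01 over all genes measured. Slc40a1 was 27.1-fold lower (22.4 to 32.9), Hmox1 3.42-fold lower (3.31 to 3.54) and Hp 7.55-fold higher (6.64 to 8.61). Slc11a1 was 1.35-fold and Ftl1 1.26-fold lower, and Fth1 1.36-fold and Tfrc 1.17-fold higher. Of the genes past the fold, 44.9% were higher in GVHD, and this became 59.8% with TMM and 61.0% with median-of-ratios scaling. Those scalings moved the median log2 ratio of all genes to 0.14 and 0.16 and that of Fth1 to at most 0.60, past the fold, with no change in the direction of any member.

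**Figure D4:**
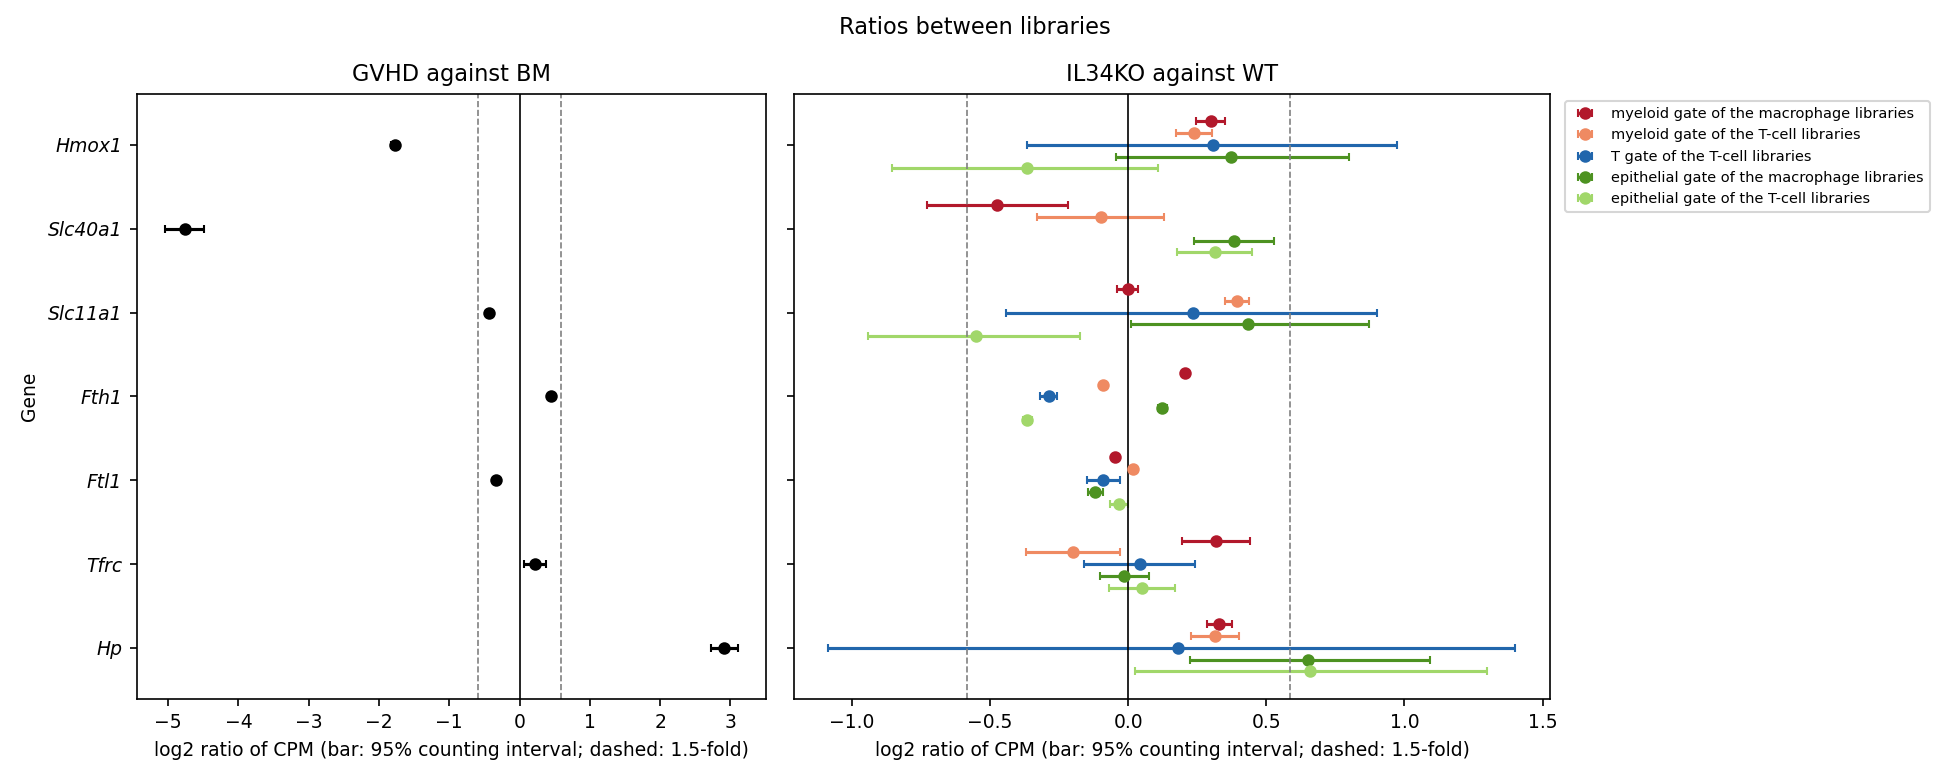
Log2 ratio of CPM of each gene with its 95% counting interval (dashed lines: 1.5-fold); left, GVHD against BM in the myeloid gate, and right, IL34KO against WT in 5 pairs of gates and libraries, without pairs under 20 UMIs. Slc40a1 (-4.76) and Hmox1 (-1.78) lie left and Hp (2.92) right of the lines in GVHD against BM, while nearly all IL34KO against WT ratios lie between the lines.

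The barcodes shared by the 2 libraries bear on these values. The 1638 myeloid cells of BM that were dropped for a shared barcode held a median of 1890 UMIs. They had Hmox1 at 170 CPM, Slc40a1 at 19.8 CPM and Hp at 45.1 CPM, each between the levels of the kept BM cells and of GVHD. Slc11a1 (216 CPM) and Ftl1 (4236 CPM) also lay between, while Fth1 (19617 CPM) lay above both and Tfrc (14.2 CPM) below both. With these cells kept, the log2 ratios were -1.67 for Hmox1, -4.62 for Slc40a1 and 2.22 for Hp. With shared barcodes dropped from GVHD too, they were -1.89, -3.65 and 3.63. The fold of Slc40a1 was then 12.6, and the fold of Hp moved by over 1.5 times in both settings, with the same direction throughout. Thinning gave 41.4-fold for Slc40a1.

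Cells of the myeloid gate were also assigned to 4 lists of subset markers. The share assigned to the mature macrophage list was 69.0% in BM (66.9 to 71.0) and 20.3% in GVHD (18.7 to 22.0), and that of the monocyte list was 4.84% and 21.9%. Within mature-list cells, Hmox1 was 387 CPM in BM and 131 in GVHD, 2.96-fold lower (2.77 to 3.16), and Slc40a1 was 70.5 and 6.03 CPM, 11.7-fold lower (8.74 to 16.0). Hp was 0.742 CPM in BM (16 UMIs) and 40.7 in GVHD (317 UMIs), 54.8-fold higher (33.3 to 97.1). Within monocyte-list cells Hp was 129 CPM in BM and 122 in GVHD, with an interval of the ratio from 0.809 to 1.11, and Hmox1 was 135 and 102 CPM. Slc40a1 was 28.8 CPM (41 UMIs) and 1.24 CPM (12 UMIs) there, 23.2-fold lower (11.9 to 48.4). Hp also differed in the cells of no list, at 8.61 CPM in BM and 51.3 in GVHD, and in neutrophil-list cells, with 0 UMIs in BM and 106 in GVHD (77.6 CPM). The cells of a list were not alike in BM and GVHD. In mature-list cells C1qa was 2510 CPM in BM and 2144 in GVHD. Cd163 was 65.9 and 1.03 CPM there, Folr2 71.5 and 2.31, Ms4a7 817 and 114, and Cx3cr1 423 and 55.3. In monocyte-list cells Ly6c2 was 712 and 180 CPM and Chil3 455 and 1871. The part of this makeup in the folds was not tested. Slc40a1 and Hmox1 were thus lower in GVHD in both the mature and the monocyte list, and the Hp interval included no difference in the monocyte list. Differences between the lists were not tested. Fth1 was higher in GVHD in both lists (1.37 and 1.67 times).

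**Figure D5:**
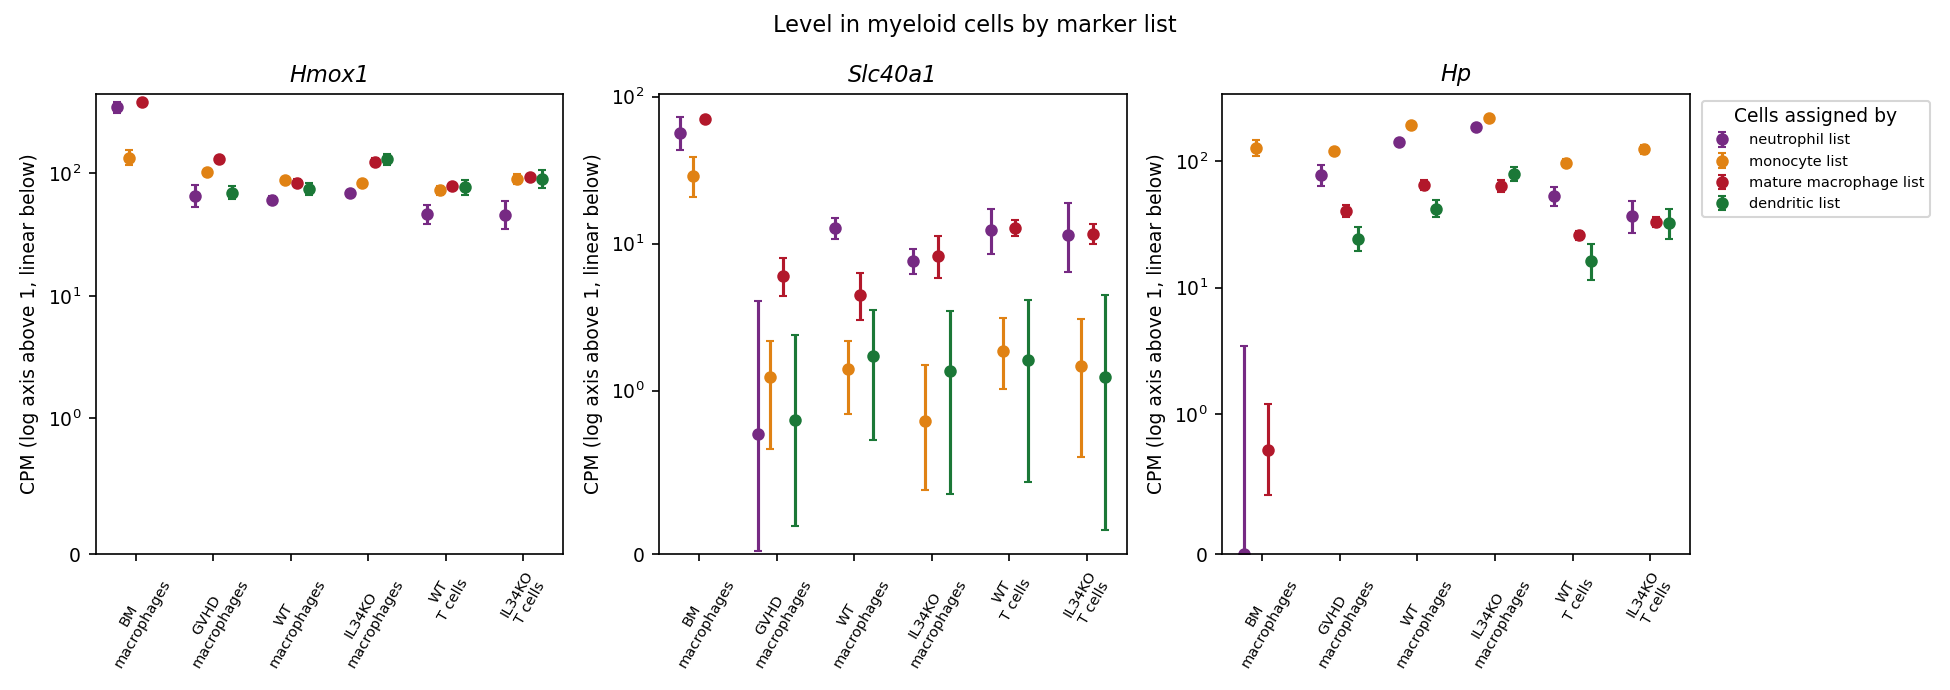
Level in CPM (log axis above 1, linear below) of Hmox1, Slc40a1 and Hp in myeloid cells assigned by the 4 marker lists, with 95% Poisson intervals, for groups of at least 50 cells. Mature-list cells of BM hold the most Hmox1 (387 CPM) and Slc40a1 (70.5 CPM), and monocyte-list cells hold the most Hp in every library.

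The cells assigned by the neutrophil list need care. In BM these 87 cells had no UMI of Retnlg, Cxcr2 or G0s2, genes that define neutrophils, and were assigned mainly by Il1r2 (1341 CPM) and Mmp9. They had Hmox1 at 347 CPM, Slc40a1 at 56.5 CPM and no Hp UMI, near the mature-list cells of BM, and are not called neutrophils here. In WT and IL34KO macrophages the list's cells had Retnlg at 726 and 1088 CPM and G0s2 at 1348 and 1680 CPM. Their Hp was 142 and 186 CPM, below the monocyte-list cells of the same libraries (196 and 221 CPM), and their Slc40a1 was 12.7 and 7.59 CPM. Over all libraries Hp in monocyte-list cells ran from 97.4 to 221 CPM with a median of 127 CPM.

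Other measures moved with Hmox1 between BM and GVHD. A list of 8 genes that tissue handling is known to raise (Fos, Jun, Junb, Egr1, Atf3, Hspa1a, Hspa1b and Hspb1, all detected in each library) summed to 7949 CPM in the BM library, 3891 in GVHD and 2619 to 3050 in the other libraries. Hspa1a alone was 1188 CPM in the BM library, 302 in GVHD and 21.4 to 39.9 elsewhere. Hmox1 is itself a stress-inducible gene, and the part of handling in its level was not tested. The epithelial gate markers, all 12 detected, summed to 25.9 CPM in BM and 36.3 in GVHD myeloid cells and to 101 to 154 CPM elsewhere. Myeloid Slc40a1 was 61.0 CPM in BM, 2.26 in GVHD and 3.41 to 7.24 elsewhere. The part of epithelial RNA in these levels was not tested.

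Cells of 1 library with a Slc40a1 UMI held more Hmox1. Thinned myeloid cells were split by a Slc40a1 UMI, which left 168 and 1842 cells in BM, 99 and 7819 in WT T cells and 53 and 4124 in IL34KO T cells. Hmox1 was 1152 CPM with and 267 CPM without Slc40a1 in BM (ratio 4.32, 3.83 to 4.87), 146 and 74.3 CPM in WT T cells (1.97, 1.31 to 2.85) and 189 and 84.6 CPM in IL34KO T cells (2.23, 1.35 to 3.47). The other libraries had under 50 such cells. Within the mature-list cells of BM the values were 1217 and 299 CPM, a ratio of 4.07. Within those of WT T cells they were 109 and 83.3 CPM, a ratio of 1.30 whose interval included 1. Cd163, the receptor for haptoglobin bound to haemoglobin, was 2.74, 24.2 and 17.3 times higher with Slc40a1 in BM, WT T cells and IL34KO T cells. Spic, a transcription factor known from iron-recycling macrophages, was 2.30, 19.7 and 18.3 times higher. The ratios in IL34KO T cells rest on 6 Cd163 and 4 Spic UMIs (5.84 to 42.8 and 4.48 to 56.1), and that of Spic in WT T cells on 6 UMIs (6.60 to 49.6). Other genes of the list went the other way in the T-cell libraries, among them Slc7a11 at 0.657 and 0.385 times and Txnrd1 at 0.704 and 0.705 times in WT and IL34KO. The Txnrd1 interval in IL34KO T cells (0.455 to 1.04) included 1. In BM Slc7a11 was at 1.04 and Txnrd1 at 0.963 times, both with intervals that included 1. These 4 genes were chosen after their values were seen. Of the reference genes, C1qa had ratios of 1.006, 1.36 and 1.40, Lyz2 of 1.22, 0.897 and 0.9003, and Apoe of 1.13, 2.69 and 2.44. Fth1 was 1.203 times higher in the Slc40a1 cells of BM and 0.659 and 0.665 times in the other pair. Split by Hmox1, Fth1 was 1.11 to 1.55 times and Ftl1 1.18 to 1.46 times higher with a Hmox1 UMI, in 6 of 6 libraries each.

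Of a list of 64 other genes of iron and haem metabolism, 47 were measured in GVHD against BM, with 9 higher and 9 lower at 1.5-fold and a median log2 ratio of 0.03 against -0.01 for all genes. That is near the background share of 33.8%. In haem breakdown and transport 0 of 8 were higher and 2 lower, among them Cd163 at 0.810 against 62.5 CPM, 77.1-fold lower. Cd163 is also a marker of the mature list. Of the export genes both that were measured were lower, namely ceruloplasmin (Cp, a ferroxidase) at 13.2 against 74.0 CPM and Hfe (a regulator of hepcidin) at 31.5 against 49.9 CPM. Iron uptake held 3 higher and 2 lower of 6, with the divalent metal transporter Slc11a2 at 68.7 against 155 CPM.

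The counts by role stand against 15.2% of all genes higher and 18.6% lower, and rest on few genes each. Mitochondrial iron genes gave 3 higher and 0 lower of 8, with the iron importer mitoferrin (Slc25a37) at 27.6 against 13.9 CPM, Cisd1 at 23.0 against 13.5 and Cisd2 at 126 against 71.2, the latter pair encoding iron-sulfur proteins. The enzyme that starts haem synthesis, Alas1, was at 110 against 40.3 CPM, 2.72-fold higher. Fbxl5, the iron sensor that marks iron regulatory protein for breakdown, was at 143 against 41.8 CPM, 3.42-fold higher. Ferritin chaperones and turnover (3 measured) had none past the fold. Among the genes of the NRF2 and BACH1 response, which is known to control Hmox1, 1 of 10 was higher and 2 lower. The cystine transporter Slc7a11 was 2.84-fold higher (526 against 185 CPM), Maf 2.92-fold lower (128 against 373 CPM) and Spic 109-fold lower (0.424 against 46.4 CPM). The factors themselves lay within the fold, Nfe2l2 at a log2 ratio of 0.06 and Bach1 at -0.54.

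IL34KO and WT libraries were compared to see whether these genes differ with IL-34 in the recipient. In the myeloid gate of the macrophage libraries 0 of 6 measured members passed 1.5-fold, against 2.44% of all genes measured (0.813% higher and 1.63% lower). In that of the T-cell libraries 0 of 7 passed, against 1.31% (0.861% higher and 0.447% lower). Hmox1 was 1.23 times (1.19 to 1.28) and 1.18 times (1.13 to 1.23) higher in IL34KO in the macrophage and T-cell libraries, and Hp 1.26 times (1.22 to 1.30) and 1.24 times (1.17 to 1.32). These are above their counting error in both sorts and were of the same direction under the 11 alternatives tried for each. The marker lists of the macrophage libraries did not all share it. Hmox1 was 0.943 times (0.867 to 1.02) in monocyte-list, 1.48 times in mature-list and 1.75 times in dendritic-list cells. Hp was 0.992 times (0.856 to 1.15) in mature-list, 1.13 times in monocyte-list and 1.87 times in dendritic-list cells. In the T-cell libraries the neutrophil list gave 0.693 times for Hp and 0.985 times for Hmox1. Its cells there had little Retnlg (108 CPM in WT and 18.3 in IL34KO) beside Il1r2 (1291 and 1200 CPM). The monocyte, mature and dendritic lists gave 1.28, 1.28 and 1.99 times for Hp. For Hmox1 they gave 1.25, 1.19 and 1.17 times, the last with an interval including 1. Without replicates these ratios cannot be set against the spread between preparations. The share of neutrophil-list cells, which hold more Hp than the mature list in these libraries, was 26.3% in IL34KO and 17.8% in WT macrophages, and without neutrophil-list and dendritic-list cells the log2 ratio of Hp there was 0.24 in place of 0.33.

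Of the other members only Slc40a1 held 1 direction over both sorts, with an interval that included no difference in the T-cell libraries. Fth1 was 1.15 times higher in IL34KO in the macrophage libraries and 1.07-fold lower in the T-cell libraries. Tfrc was 1.25 times higher (1.14 to 1.36) and 1.15-fold lower (1.02 to 1.29). Slc11a1 was at 165 CPM in both macrophage libraries and 1.31 times higher in IL34KO in the T-cell libraries (205 against 156 CPM). Ftl1 lay within 1.04-fold in both. Slc40a1, under 8 CPM in all 4 libraries, was 1.39-fold lower (1.16 to 1.66) and 1.07-fold lower (0.915 to 1.26), and was under the 5 CPM of a measured gene in the macrophage libraries. Within mature-list cells of the macrophage libraries it was 8.24 CPM (40 UMIs) in IL34KO and 4.44 CPM (31 UMIs) in WT, the opposite direction to the whole gate, and 1.10-fold lower in those of the T-cell libraries.

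In the T gate of the T-cell libraries 4 members were measured and 0 passed the fold, against 3.59% of genes (2.16% higher and 1.43% lower). Fth1 was 1819 CPM in IL34KO and 2220 CPM in WT, 1.22-fold lower, and Tfrc 47.5 and 46.2 CPM. Of all genes past the fold there, 60.2% were higher in IL34KO, which became 44.9% with TMM scaling. In the epithelial gate of the macrophage libraries 1 of 7 passed, against 3.98% of genes (2.8% higher and 1.17% lower), and 70.5% of the genes past the fold were higher, 57.9% with TMM. That gene was Hp at 6.75 against 4.30 CPM (1.57 times, 1.17 to 2.13). Its epithelial level was 3.84% to 8.72% of the myeloid one, near the share of the free-RNA reference genes, and the direction turned under 3 alternatives, so no epithelial difference is read from it. In the epithelial gate of the T-cell libraries 0 of 6 passed, against 5.88% of genes (2.75% higher and 3.13% lower), and the split was 46.8% higher, 30.03% with TMM. Slc40a1, which is above free RNA in the epithelium, was 1.30 times higher in IL34KO in the macrophage libraries (1.18 to 1.44) and 1.24 times in the T-cell libraries (1.13 to 1.36). In the former the log2 ratio was 0.38 and turned to -0.11 after thinning. A Krt20 UMI was found there in 144 of IL34KO cells (736 without) and 38 of WT cells (329 without) after thinning. Slc40a1 was 142 CPM in IL34KO and 145 in WT with Krt20, and 20.4 and 31.9 CPM without. The part of that makeup in the difference was not tested. The share of cycling epithelial cells after thinning was 36.0% in IL34KO and 32.2% in WT macrophages, and 20.5% and 21.8% in IL34KO and WT T cells. Epithelial Fth1 was 1.09 times higher and 1.29-fold lower, respectively.

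Of the list of 64 genes, 2 were higher and 3 lower of 44 measured in IL34KO against WT in the myeloid gate of the macrophage libraries, and 0 higher and 1 lower of 44 in that of the T-cell libraries. Lactoferrin (Ltf), a granule protein of neutrophils that binds iron, was at 16.7 against 26.3 CPM, 1.58-fold lower. Transferrin (Trf) was at 151 against 235 CPM, 1.56-fold lower, and Fbxl5 at 375 against 243 CPM, 1.54-fold higher. T cells had 0 of 41 past the fold, the epithelium of the macrophage libraries 0 of 46, and that of the T-cell libraries 1 higher and 2 lower of 49. These counts stand against 2.44%, 1.31%, 3.59%, 3.98% and 5.88% of all genes past the fold, in the order given. The last comparison included Maf at 13.96 against 21.9 CPM, a gene of immune cells.

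Across the 16 groups of a library and gate with at least 50 cells, the members are described by how their levels ran together, with no test since the groups share libraries and gates. Hmox1, Slc11a1, Fth1 and Ftl1 were alike (Pearson r of log2(CPM + 5) from 0.90 to 0.97), Tfrc ran against them (r from -0.92 to -0.81), and Slc40a1 followed none (r from 0.03 to 0.29 with those 4). Hp had r from 0.73 to 0.88 with those 4 and -0.77 with Tfrc. The groups span 3 gates, so these r and those below include the differences between gates given above. For the myeloid gate alone r was not computed. In that gate BM had the highest Hmox1 (346 CPM) and the lowest Fth1 (13596 CPM). Among 5976 genes searched, those most like each member included C5ar1, Lrrc25 and Clec4a1 for Hmox1 (r of at least 0.99). For Slc11a1 they were Clec4a3, Rab3il1 and Slamf9, for Fth1 Creg1, Pilra and Slc31a2, and for Ftl1 Pstpip2 and Ctsz, all with r of at least 0.99. Slc40a1 was most like Fblim1, Reps2 and Camk2d (r of 0.97 to 0.98), Tfrc like Sidt1, Cops3 and Sod1 (0.98 to 0.99), and Hp like Bnip3, Acod1 and Fpr2 (0.94). Of the 64 genes of the list, 54 were measured in at least 1 gate, and 13 were highest in the myeloid gate without overlap, 2 in the T gate and 14 in the epithelial gate. The epithelial ones included Heph at 51.5 to 75.4 CPM against under 0.9 CPM in every myeloid gate, and the NRF2 target Nqo1 at 29.0 to 38.8 against 1.30 to 3.39 CPM.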

How the data were processed

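Single colon cells were captured with 10x Genomics chemistry, per the labels' protocols, which name 5′ and 3′ kits, without giving the kit of each library. The authors deposited counts of UMIs per gene and barcode, made with Cell Ranger 7.0.1 on mm10, per the submitters' processing notes. The sources used here do not give the annotation or the handling of doublets.

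Barcodes with 500 genes or more and no more than 10% of UMIs from mitochondrial genes were kept (2546 to 14061 per library). A gate needed at least 4 UMIs from 3 genes of its list and 75% of a cell's UMIs over 5 lists (myeloid, T, epithelial, B and plasma, stromal), and this share was the treatment of doublets. Subsets needed 3 UMIs from 2 genes and 50% of 4 scaled list counts. Of the 12 myeloid gate markers 11 were used, and 1 was not analysed here. UMIs were summed per gate and library as CPM. Ratios have conditional binomial, levels exact Poisson and shares exact Clopper-Pearson intervals at 95%, all for counting error only. A gene counted as measured when either library of the pair reached 5 CPM. The named genes are the 7 members, genes of the 64-gene list with at least 20 CPM and 1.5-fold apart (at most 12 per comparison), and the 3 most similar genes per member, of which 1 is not reported here; others (Heph, Nqo1, Nfe2l2, Bach1) were chosen after their values were seen. The members and lists were chosen with earlier results of these data known. On simulated counts of the 32285 genes for GVHD against BM, 100 of 100 genes changed 2-fold were called, and 0 of 9344 unchanged ones; this simulated counting noise only, so it checks the code and says nothing of the spread between preparations. Alternatives were TMM factors from edgeR 4.0.16, median-of-ratios factors as in DESeq2, other filters, gate shares, expression floors, thinning, equal cell weights, Scrublet removal, cycling cells left out and other treatments of shared barcodes. Python 3.11.15, scipy 1.17.1 and scanpy 1.11.5 were used. The Krt20 and UMI splits and the search of untranslated regions were added after the data were seen.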

Additional observations from a re-analysis of the deposited data

Results flagged for a closer look

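For 4 genes IL34KO against WT differed in direction between gates or sorts, with counting intervals on opposite sides of no change; each value is 1 library against 1 library, and the difference between the comparisons was not tested. Several of these signs turned with the processing. Ftl1 in the myeloid gate of the T-cell libraries kept its sign in 8 of 11 alternatives (down to -0.0045) and in their epithelial gate in 7 of 10. Fth1 in the epithelial gate of the macrophage libraries kept it in 8 of 10 (down to -0.084). Slc11a1 kept it in 8 of 10 in the epithelial gate of the T-cell libraries (up to 0.60) and in 7 of 10 in that of the macrophage libraries (down to -0.38). The other values named here kept their sign in every alternative run. The log2 ratio of Fth1 was 0.21 in the myeloid and 0.12 in the epithelial gate of the macrophage libraries, and -0.093, -0.29 and -0.37 in the myeloid, T and epithelial gates of the T-cell libraries. Ftl1 had 0.017 in the myeloid gate of the T-cell libraries and -0.090 and -0.032 in their T and epithelial gates, and -0.049 and -0.12 in the myeloid and epithelial gates of the macrophage libraries. Tfrc had 0.32 in the myeloid gate of the macrophage libraries and -0.20 in that of the T-cell libraries. Slc11a1 had 0.39 in the myeloid gate of the T-cell libraries, 0.43 in the epithelial gate of the macrophage libraries and -0.55 in that of the T-cell libraries, where both epithelial levels lay in the range of free RNA.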

How the results depend on the processing

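No paired analysis was possible because each group is 1 library and the labels give no replicate numbers. Over all alternatives, 228 of 284 counts of genes past 1.5-fold stayed within 1.5 times of the reported count and 56 did not, and of 404 single ratios 261 stayed within their counting interval, 140 moved beyond it and 3 turned their sign after a call. Hp in the epithelial gate of the macrophage libraries, IL34KO against WT, turned to a log2 ratio of -0.055 with stricter filters, -0.0039 with a gate share of 60% and -0.21 without cycling cells. In GVHD against BM the directions of Hmox1, Slc40a1 and Hp held in all 13 alternatives, with log2 ratios from -1.94 to -1.62, -5.37 to -3.65 and 2.22 to 3.63; the cause of the spread was not tested. There 2 members were higher with TMM and with median-of-ratios scaling, and without an expression floor 15 genes of the 64-gene list were higher and 14 lower. All remaining moved counts are of IL34KO against WT. Members in the epithelial gate of the macrophage libraries: 0 higher with Scrublet removal, stricter filters and gate shares of 60% and 90%, and 2 higher without cycling cells and after thinning. Members in the epithelial gate of the T-cell libraries: 1 lower with either scaling, 2 higher with equal cell weights, 1 higher with a gate share of 60%, 1 higher and 2 lower with stricter filters, and 1 each way after thinning. In the T gate 1 member was higher with a gate share of 60%. For the 64-gene list without an expression floor, the numbers lower were 7 and 6 in the myeloid gates of the macrophage and T-cell libraries, and the numbers higher and lower were 3 and 6 in the T gate, 4 and 2 in the epithelial gate of the macrophage libraries, and 6 and 5 in that of the T-cell libraries. After thinning the list had 1 lower in the myeloid gate of the macrophage libraries, 1 higher and 2 lower in the T gate, and 3 and 3, and 5 and 4, in the epithelial gates. Without cycling cells it had 1 lower in the myeloid gate of the macrophage libraries, 1 lower in the T gate, 4 higher and 1 lower in the epithelial gate of the macrophage libraries, and 2 higher and 0 lower in that of the T-cell libraries. With equal cell weights it had 1 higher in the T gate and 4 higher and 1 lower in the epithelial gate of the T-cell libraries. With a floor of 20 CPM it had 0 higher and 1 lower in the epithelial gate of the T-cell libraries, 0 lower in the myeloid gate of the T-cell libraries and 1 higher in that of the macrophage libraries. With a gate share of 60% it had 1 lower and 2 higher in the epithelial gates of the T-cell and macrophage libraries. In the myeloid gate of the T-cell libraries it had 0 lower with gate shares of 60% and 90% and with looser filters. Looser filters gave 1 higher and stricter filters 3 lower in the epithelial gate of the macrophage libraries. Scrublet removal gave 1 lower in that of the T-cell libraries, and leaving out neutrophil-list and dendritic-list cells gave 0 higher in the myeloid gate of the macrophage libraries. These counts are small, so 1 gene moves many of them.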
